A study of Mus musculus with 2 samples.

Results

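Chemokines and their receptors were examined in mouse liver as 1 family of genes, taken by symbol: Ccl, Cxcl, Ccr, Cxcr, Xcl, Xcr or Ackr followed directly by a number, and Cx3cl1 and Cx3cr1. The arrays held 86 probe sets (groups of short oligonucleotides that report 1 transcript) for 54 such genes, 33 ligands and 21 receptors, out of 34945 probe sets for 18193 genes. A further 4 probe sets carry a symbol of this pattern among several symbols and were not counted. The RNA came from livers of male C57Bl/6J mice bought at 9 weeks of age, acclimatised for 1 week and then fed for 112 days. Both groups used here ate a diet poor in n-3 polyunsaturated fatty acids, in which sunflower oil replaced soybean oil. During the last 10 days the DEF/FOS mice stayed on that diet, with an n-6 to n-3 ratio of 127.2, and were given 0.25 g per day of fructooligosaccharides (FOS), a fibre that gut bacteria ferment, in their water. The DEF/CT mice went back to the control diet with soybean oil, with a ratio of 6.9. Each group had 8 mice per the treatment protocol, and 4 to 8 per group in the extract protocol, and their RNA was pooled in equal amounts onto 1 array. The design therefore gives 1 value per gene and group. No difference below has a replicate check or a p-value, and fibre and oil cannot be told apart.

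Chemokines are small secreted proteins that guide leukocytes along gradients. They are grouped by the spacing of their first cysteines into CXC, CC, XC and CX3C types, and they act through G protein-coupled receptors on the leukocytes. Atypical receptors bind chemokines without that signal and remove or redistribute them. In liver, hepatocytes, Kupffer cells, sinusoidal endothelial cells and stellate cells all make chemokines, and the receptors sit mostly on the incoming or resident leukocytes.

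The values are MAS5 signals in arbitrary units on a linear scale. Because probe sets differ in how strongly they bind, a signal was compared between the pools for the same probe set and never between genes. Differences are log2 of the DEF/FOS signal minus log2 of the DEF/CT signal, centred on the median over probe sets above a signal floor. The floor was the median over all probe sets of the mean log2 signal, a signal of 19.4. This limit was set for the present work and does not stand for a detection call. The probe set with the highest mean log2 signal represents its gene, and a gene counts as above the floor by that mean. Where 1 pool lies below the floor, the fold is computed against the floor and written as "at least".

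Both pools had the profile of liver tissue. All 10 hepatocyte markers measured were above the floor, with a median difference of -0.03, and albumin (Alb) had signals of 11023 in DEF/FOS liver and 11303 in DEF/CT liver. The log2 signals of the pools correlated at Pearson's r of 0.967 across probe sets above the floor, which are not independent replicates. All 12 skeletal muscle markers were at least 2-fold lower in DEF/FOS liver, where 2.19% of all genes were, with summed signals of 164 against 2839. Several of them passed the floor through DEF/CT liver alone, so their sign follows from the filter, and the others had both signals above it. What part skeletal muscle has in any chemokine signal was not tested. The one technical spread these data allow is that between several probe sets for 1 gene, with an SD of 0.38 on the log2 scale over 4885 genes. It was 0.48 for genes between the floor and the 75th percentile of signal, a signal of 84.3, and 0.30 for those above it. A 1.5-fold difference, 0.58 on this scale, is thus close to the probe set spread at low signal.

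Many of these genes gave little signal in liver. In 25 of 54 genes, or 46.3%, the signal lay below the floor in both arrays, where 32.7% of all genes did. No other probe set of these 25 genes reached the floor in either array. They comprised 12 ligands, Ccl1, Ccl3, Ccl7, Ccl11, Ccl12, Ccl20, Ccl22, Ccl24, Cxcl2, Cxcl3, Cxcl5 and Cxcl17. The other 13 were receptors, Ackr3, Ccr1, Ccr1l1, Ccr3, Ccr4, Ccr7, Ccr8, Ccr9, Ccr10, Cx3cr1, Cxcr4, Cxcr5 and Xcr1. For these genes the differences have no order and no fold is given. In 20 genes both signals lay above the floor. The remaining 9 had signal above the floor in 1 pool alone, 4 in DEF/FOS liver (Ccl2, Cxcl14, Cxcr2 and Xcl1) and 5 in DEF/CT liver (Ccl8, Ccl17, Ccr2, Cxcl15 and Cxcr6).

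By the mean of both arrays, 24 of 54 genes were above the floor, or 44.4% against 61.4% of all genes, with 17 of 33 ligands and 7 of 21 receptors among them. Of these 24, 4 passed with 1 pool below the floor, so the higher pool carried them: Ccl8, Ccr2, Cxcl14 and Cxcr6. The gene closest above the floor was Cxcl14, with a mean signal of 20.2, and the closest below was Ccl2, with 19.2.

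**Figure D1:**
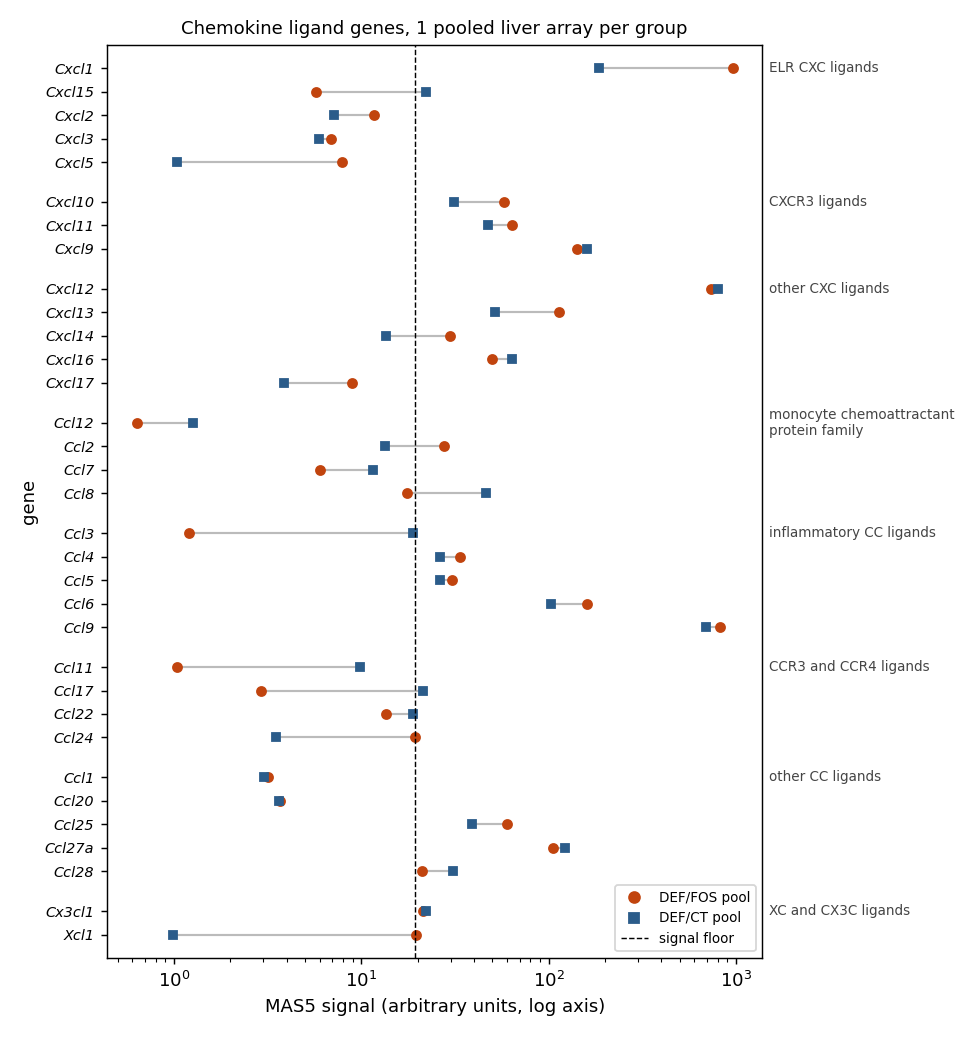
MAS5 signal (x axis, arbitrary units, log scale) of the 33 chemokine ligand genes in DEF/FOS liver (circles) and DEF/CT liver (squares), 1 array each, grouped by family. The dashed line is the floor of 19.4. Cxcl1 has the widest gap among the genes with both signals above it, 960 against 185, by a probe set whose ID marks less specific design. In both pools, 12 ligands lie left of the line.

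In 20 genes the floor was passed in both pools, and 5 of these were higher in DEF/FOS liver by 1.5-fold or more, or 25% against 5.84% of all 10594 genes with signal in both pools, and 0 were lower by that fold, against 5.82%. The 5 were Cxcl1, Cxcl13, Cxcl10, Ccl6 and Ccl25. At 2-fold, 2 were higher, Cxcl1 and Cxcl13, and 0 lower, where 1.13% and 1.06% of all such genes were. The median difference over the 20 was 0.01, with 10 above 0 and 10 below.

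The floor on the mean adds the 4 genes that passed through 1 pool, whose direction that filter fixes, and on this wider basis the counts are given as a description. Among the 24 genes, 6 were at least 1.5-fold higher in DEF/FOS liver, or 25% against 6.75% of the 11163 genes above the floor. Cxcl14 joined the 5 ligands named above. A single gene, Ccl8, was at least 1.5-fold lower, or 4.17% against 7.82% of all genes. At 2-fold, 3 genes were higher, Cxcl1, Cxcl13 and Cxcl14, and 1 was lower, Ccl8, where 1.74% of all genes were higher and 2.19% lower. When lower signals were raised to the floor, Cxcl14 left the 2-fold count and 2 higher genes remained, Cxcl1 and Cxcl13. Without centring, Ccr2 joined the lower side, so that 6 genes were higher and 2 lower. The median over the 24 genes was -0.07, against 0.00 for all genes, and it had the opposite sign when each gene was given by the median of its probe sets (0.12), without probe sets whose ID marks less specific design (0.25), and above the 75th percentile of signal (0.047).

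Ligands and receptors had medians of opposite sign. With both signals above the floor, 15 ligands had a median difference of 0.25, with 9 above 0, and 5 receptors had one of -0.28, with 1 above 0 and none at least 1.5-fold apart. By the mean of both arrays, the median was 0.25 over 17 ligands and -0.32 over 7 receptors. The receptors Ccr2 and Cxcr6 passed that floor through DEF/CT liver alone, so their negative sign follows from the filter. Of all genes above the floor, 49.9% had differences above 0. Above the 75th percentile of signal there were 6 members, all ligands, of which 2 were at least 1.5-fold higher and none lower. In that range 4.01% of all genes were higher and 2.77% lower by that fold. Between the floor and the 75th percentile, 4 of 18 members were higher and 1 lower, where 10.9% of all genes were higher and 15.5% lower.

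**Figure D2:**
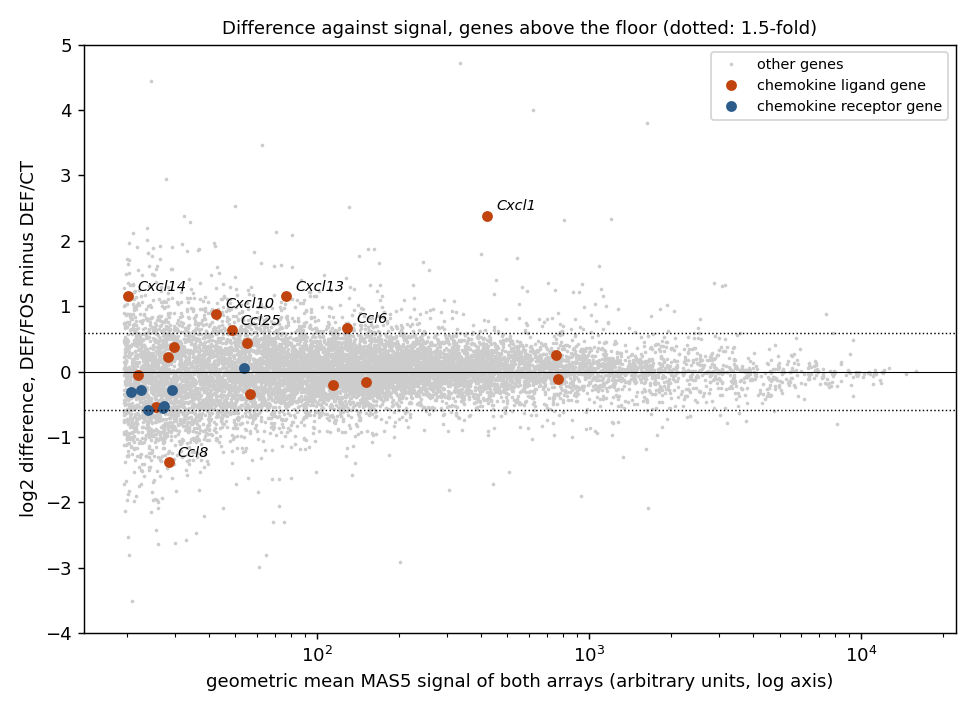
Log2 difference, DEF/FOS minus DEF/CT (y axis), against the geometric mean signal of both arrays (x axis, arbitrary units, log scale) for the 11163 genes above the floor, with chemokine ligand genes in orange, receptor genes in blue and all other genes in grey; dotted lines mark 1.5-fold and 7 genes lie below the plotted range. Cxcl1, at 2.39, stands outside the grey cloud at its signal, by a probe set whose ID marks less specific design. Cxcl14 and Ccl8 lie at low signal, where the cloud is wide.

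The neutrophil-attracting CXC ligands, which carry the amino acids ELR before the CXC motif and act through Cxcr2, were represented by Cxcl1. Cxcl1 (KC, a chemokine made quickly by hepatocytes and macrophages under inflammatory signals) had a signal of 960 in DEF/FOS liver and 185 in DEF/CT liver at its probe set of highest mean signal. This is a 5.23-fold difference. Its second probe set gave 509 against 172, a difference of 1.58, and the third gave 222 against 158, a difference of 0.50. All 3 were higher in DEF/FOS liver, but they spanned 1.89 on the log2 scale, where the probe set SD at such signals is 0.30.

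The other ELR ligands had little signal. Cxcl2 (MIP-2), which attracts the same cells, had signals of 11.7 and 7.18 in DEF/FOS and DEF/CT liver, Cxcl3 6.86 and 5.92, and Cxcl5 7.86 and 1.04, all below the floor. Cxcl15 (lungkine, known from lung epithelium) had 5.75 against 22.3, at least 1.14-fold lower in DEF/FOS liver, with a second probe set below the floor in both. Cxcl1 was the 1 gene of this group above the floor by its mean.

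The shared promoter element of these neighbouring genes is shown because 1 of the 3 genes that hold it gave signal above the floor. The windows cover the 120 bases before the annotated start in RefSeq (GRCm38.p6), with matches to the kappaB consensus, the DNA motif bound by NF-kappaB, in capitals. They lie at chr5:90891125-90891244 for Cxcl1, chr5:90903779-90903898 for Cxcl2 and chr5:90785981-90786100 for Cxcl3, each on the plus strand.
Cxcl1: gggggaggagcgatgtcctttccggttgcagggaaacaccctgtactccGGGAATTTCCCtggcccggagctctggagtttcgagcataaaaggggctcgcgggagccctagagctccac
Cxcl2: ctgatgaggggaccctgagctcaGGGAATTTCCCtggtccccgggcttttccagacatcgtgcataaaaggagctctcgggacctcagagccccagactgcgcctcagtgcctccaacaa
Cxcl3: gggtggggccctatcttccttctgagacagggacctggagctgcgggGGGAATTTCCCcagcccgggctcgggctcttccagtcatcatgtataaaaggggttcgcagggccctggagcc
The same run, GGGAATTTCCC, matches the consensus on both strands. It begins at base -71 in Cxcl1, -97 in Cxcl2 and -73 in Cxcl3, counted from the base before the start as -1. It is the longest run that Cxcl3 shares with either of the others in these windows, at 11 bases, and Cxcl1 and Cxcl2 share 14. All 3 windows hold this run, whether or not the gene passed the floor in these livers.

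Promoter windows of 250 bases were listed for 41 of the 54 genes, 45 windows in all. A match to the kappaB consensus on either strand, with overlapping matches counted once, was found in 11 windows, or 24.4%, against 7.25% of 32851 promoter windows of all genes. The 11 genes were Ackr2, Ccl1, Ccl9, Ccl20, Ccr1, Ccr3, Ccr6, Cxcl1, Cxcl2, Cxcl3 and Cxcl10. Of the 6 genes at least 1.5-fold higher, Cxcl1 and Cxcl10 are among them, and Ccl6, Ccl25, Cxcl13 and Cxcl14 had a window without a match. Several of the 11, such as Ccl1 and Ccl20, lay below the floor in both pools.

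Cxcr2, the receptor for these ligands on neutrophils, had a signal of 29.6 in DEF/FOS liver and 3.88 in DEF/CT liver by its 1 probe set. It was at least 1.54-fold higher in DEF/FOS liver, and its mean lay below the floor. With 1 pool alone above the floor, that direction follows from the floor and is no result. Neutrophil markers did not all lie on 1 side. Of 11 markers measured, 6 passed the floor, 3 of them by 2-fold or more in favour of DEF/FOS liver and none the other way, where 1.74% and 2.19% of all genes were. The 3 were Lcn2, 120 against 20.9, and the calgranulins S100a8, 147 against 33.8, and S100a9, 110 against 35.1. The 6 had summed signals of 459 in DEF/FOS liver and 168 in DEF/CT liver. The granule genes Camp, Ltf and Mmp8 lay below the floor in both pools, Mpo and Mmp9 had signal in DEF/CT liver alone (21.8 and 22.7), and Elane differed by -0.30. In tissue RNA a change in the number of cells and a change in RNA per cell cannot be told apart, and the part of neutrophils in the Cxcl1 and Cxcr2 signals was not tested.

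The interferon-induced ligands of Cxcr3, a receptor of activated T cells and NK cells, did not differ in 1 direction. Cxcl10 (IP-10) had signals of 57.6 in DEF/FOS liver and 31.4 in DEF/CT liver, a 1.85-fold difference by its 1 probe set. Cxcl11 (I-TAC) had 63.8 against 47.7, a difference of 0.43, and its second probe set was below the floor in both pools. Cxcl9 (MIG) had 143 against 161, a difference of -0.16, with -0.41 at its second probe set. Of these 3 ligands, Cxcl10 is higher in DEF/FOS liver beyond 1.5-fold, and Cxcl9 lies on the other side of 0.

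Cxcl10 is shown because its promoter holds both kinds of element. In the window from base -220 to base -91, at chr5:92348980-92349109 on the minus strand (RefSeq, GRCm38.p6), capitals mark matches to the kappaB consensus and, first, to the interferon-stimulated response element core TTTCNNTTTC, here on the opposite strand.
Cxcl10: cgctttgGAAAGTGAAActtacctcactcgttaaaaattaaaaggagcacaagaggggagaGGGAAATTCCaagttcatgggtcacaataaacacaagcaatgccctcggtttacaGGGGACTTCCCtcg
The element core begins at base -213 and the kappaB matches at -159 and -104. The core was found in 2 of the 45 member windows, those of Cxcl10 and Cxcl14, or 4.44%, against 2.98% of all promoter windows. The window of Cxcl9 held neither motif, and no window was listed for Cxcl11.

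Cxcr3 itself had signals of 26.4 and 32.4 in DEF/FOS and DEF/CT liver, a difference of -0.28. T and NK cell markers were close to or below the floor: 3 of 12 were above it, Cd8a, Klrd1 and Nkg7, all with negative differences and summed signals of 70.1 and 86.8. Cd3e, Cd3d and Cd3g, which define T cells, lay below the floor in both pools. Cd8a had the largest of these differences, at 20.2 against 32.9.

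Among the other CXC ligands, Cxcl13 (BLC), which attracts B cells through Cxcr5, was 2.22-fold higher in DEF/FOS liver. Its signals were 114 against 51.9 at one probe set and 84.3 against 53.0 at the other, with differences of 1.15 and 0.68. Cxcr5 lay below the floor in both pools, at 5.82 and 10.1. B and plasma cell markers lay on the opposite side from Cxcl13. All 7 above the floor had negative differences, from -1.72 for Ighm (whose probe sets disagreed in sign) to -0.00 for Blnk. Their summed signals were 451 in DEF/FOS liver and 1118 in DEF/CT liver, of which Ighm alone made 243 and 809. Ms4a1, a B cell gene at 14.9 against 36.8, passed through DEF/CT liver alone. It and Pax5, at 21.7 against 33.2, were among the 4 at least 1.5-fold lower, where 7.82% of all genes were. Between the floor and the 75th percentile of signal, 15.5% of all genes were lower by that fold. Differences above 0 were found in 49.9% of all genes above the floor.

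Cxcl12 (SDF-1), a ligand made constantly by stromal and endothelial cells, had close signals in both pools. It had 736 in DEF/FOS liver and 800 in DEF/CT liver, and 655 and 734 at a second probe set, with differences of -0.11 and -0.15. Its receptors Cxcr4, at 4.51 and 4.27, and Ackr3, at 14.1 and 16.1, were below the floor in both pools. Cxcl14 (BRAK), an epithelial chemokine, had 29.9 against 13.6 and was at least 1.55-fold higher in DEF/FOS liver, while its other probe set, at 4.69 and 6.94, was below the floor. The difference of Cxcl14 was 1.15 with its measured DEF/CT signal and 0.63 with that signal set to the floor.

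Cxcl16, a membrane-bound ligand of Cxcr6 that holds NKT cells in the liver sinusoids, gave no settled direction. Its probe set of highest mean had 50.2 in DEF/FOS liver and 63.9 in DEF/CT liver, a difference of -0.33. Its other probe set had 60.5 against 37.7, a difference of 0.70. Cxcr6 had 18.5 against 23.2 and was at least 1.18-fold lower in DEF/FOS liver, and its second probe set was below the floor in both. Cxcl17, a mucosal chemokine, was below the floor at 8.88 and 3.87.

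The inflammatory CC ligands Ccl3, Ccl4, Ccl5, Ccl6 and Ccl9, which act on monocytes, macrophages and T cells, were on the higher side in DEF/FOS liver in all 4 genes above the floor, by small amounts. Ccl6 (C10), a macrophage chemokine of rodents, had 161 against 103, a 1.58-fold difference, and 67.1 against 41.7 at its second probe set, with differences of 0.66 and 0.70. Its 2 probe sets gave nearly the same value. Ccl9 (MIP-1 gamma) had 818 against 697 and 381 against 262, with differences of 0.25 and 0.56. Ccl4 (MIP-1 beta) had 33.6 against 26.2 and Ccl5 (RANTES) 30.4 against 26.2, with differences of 0.37 and 0.23 that are within the probe set spread at this signal. Ccl3 (MIP-1 alpha) lay below the floor in both pools, at 1.21 and 19.0. Kupffer cell and macrophage markers, all 15 above the floor, had a median difference of 0.20 with 10 above 0, where 49.9% of all genes were. Their summed signals were 5636 in DEF/FOS liver and 4897 in DEF/CT liver. Marco, a scavenger receptor, was the 1 gene at least 1.5-fold higher, at 131 against 61.6, where 6.75% of all genes were. Whether those cells account for the values of Ccl6 and Ccl9 was not tested.

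In the monocyte chemoattractant protein family, 2 genes had signal above the floor, each in 1 pool alone. The floor thus fixes the direction of both, and their opposite signs are no result. Ccl8 (MCP-2) had 17.5 in DEF/FOS liver and 46.1 in DEF/CT liver and was at least 2.35-fold lower in DEF/FOS liver, by 1 probe set. Ccl2 (MCP-1), the main ligand that draws monocytes through Ccr2, had 27.7 against 13.4 and was at least 1.44-fold higher, with its mean just below the floor. Ccl7 and Ccl12 were below the floor in both pools. Ccr2 had 19.3 against 29.3 and was at least 1.49-fold lower, close to the 1.5-fold limit. The means of its 3 other probe sets were below the floor, and 1 of them had signal in DEF/CT liver alone, at 23.7. Of 9 monocyte and dendritic cell markers, Ccr2 included, 5 were above the floor, with a median difference of -0.02.

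The eosinophil- and T cell-attracting ligands Ccl11, Ccl17, Ccl22 and Ccl24 were near or below the floor. Ccl24 (eotaxin-2) had 19.3 in DEF/FOS liver, just under the floor, and 3.52 in DEF/CT liver. Ccl17 (TARC) had 2.92 against 21.4, at least 1.09-fold lower. Ccl11 (eotaxin) had 1.03 and 9.86, and Ccl22 (MDC) 13.5 and 18.9.

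Among the remaining CC ligands, Ccl25 (TECK), the ligand of the gut-homing receptor Ccr9, was 1.55-fold higher in DEF/FOS liver. Its signals were 60.0 against 39.1 and, at the other probe set, 49.7 against 34.8, with differences of 0.63 and 0.53. Ccr9 lay below the floor in both pools by all 5 of its probe sets. Ccl27a and Ccl28, epithelial ligands that share the receptor Ccr10, had differences of -0.20 and -0.54, the first at 106 against 123 and the second at 21.1 against 31.0. The means of its 2 other probe sets were below the floor, 1 of them with signal in DEF/CT liver alone, at 24.0, and Ccr10 was below the floor. Ccl20, with 3.69 and 3.65, and Ccl1, with 3.19 and 3.03, were below the floor.

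The fractalkine gene Cx3cl1, a membrane-bound ligand, had 21.4 and 22.3, a difference of -0.04, and its receptor Cx3cr1, a marker of patrolling monocytes, was below the floor at 15.0 and 14.7. Xcl1 (lymphotactin), made by T and NK cells, had 19.7 in DEF/FOS liver, just above the floor, and 0.988 in DEF/CT liver, at least 1.02-fold higher. Its receptor Xcr1, of cross-presenting dendritic cells, was below the floor in both.

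**Figure D3:**
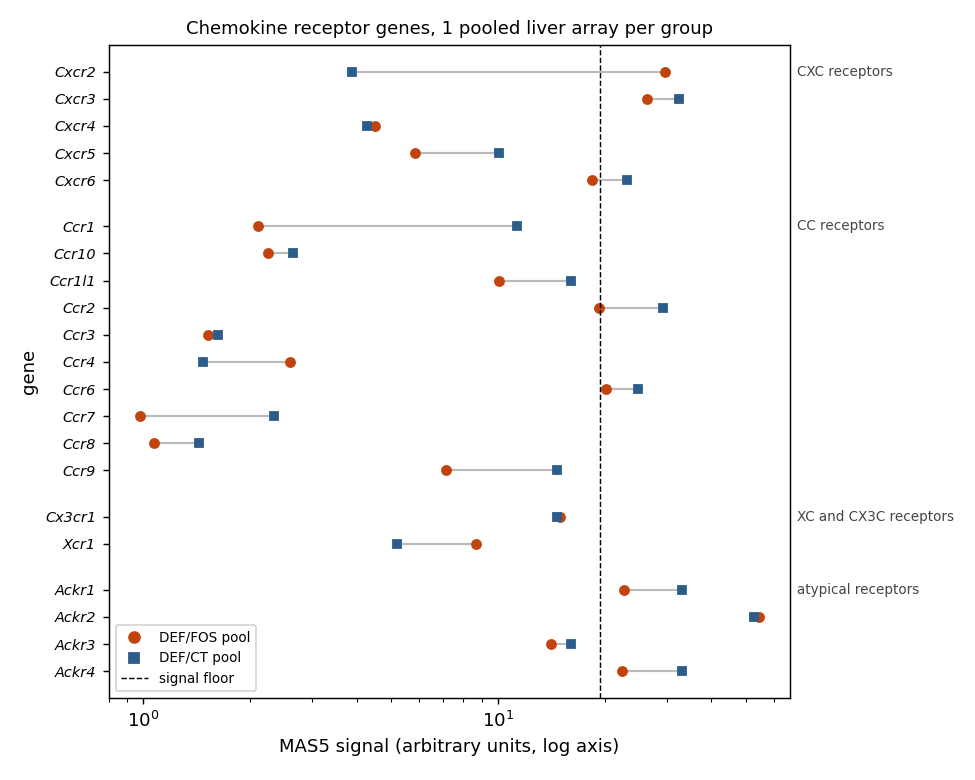
MAS5 signal (x axis, arbitrary units, log scale) of the 21 chemokine receptor genes in DEF/FOS liver (circles) and DEF/CT liver (squares), 1 array each. The dashed line is the floor of 19.4; 13 receptors lie left of it in both pools, and Cxcr2 is the receptor whose DEF/FOS signal alone lies to its right.

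Of the 21 receptors, 5 had both signals above the floor: Cxcr3, Ccr6, Ackr1, Ackr2 and Ackr4. Ccr6, the receptor of Ccl20 on B cells and some T cells, had 20.2 in DEF/FOS liver and 24.8 in DEF/CT liver, a difference of -0.28. The atypical receptor Ackr1, the Duffy antigen of red cells and venules, had 22.6 against 33.0, a difference of -0.53. Ackr2 (D6), which degrades inflammatory CC chemokines, had 54.6 against 52.8, a difference of 0.06. Ackr4, a scavenger of Ccl19, Ccl21 and Ccl25, had 22.4 against 33.1 at one probe set, a difference of -0.55, but 34.2 against 17.5 at another, at least 1.78-fold higher in DEF/FOS liver. The direction of Ackr4 is therefore not settled by these arrays. All 7 receptors above the floor had mean signals of at most 53.7, and their differences ran from -0.58 to 0.06, where the probe set SD at such signals is 0.48.

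**Figure D4:**
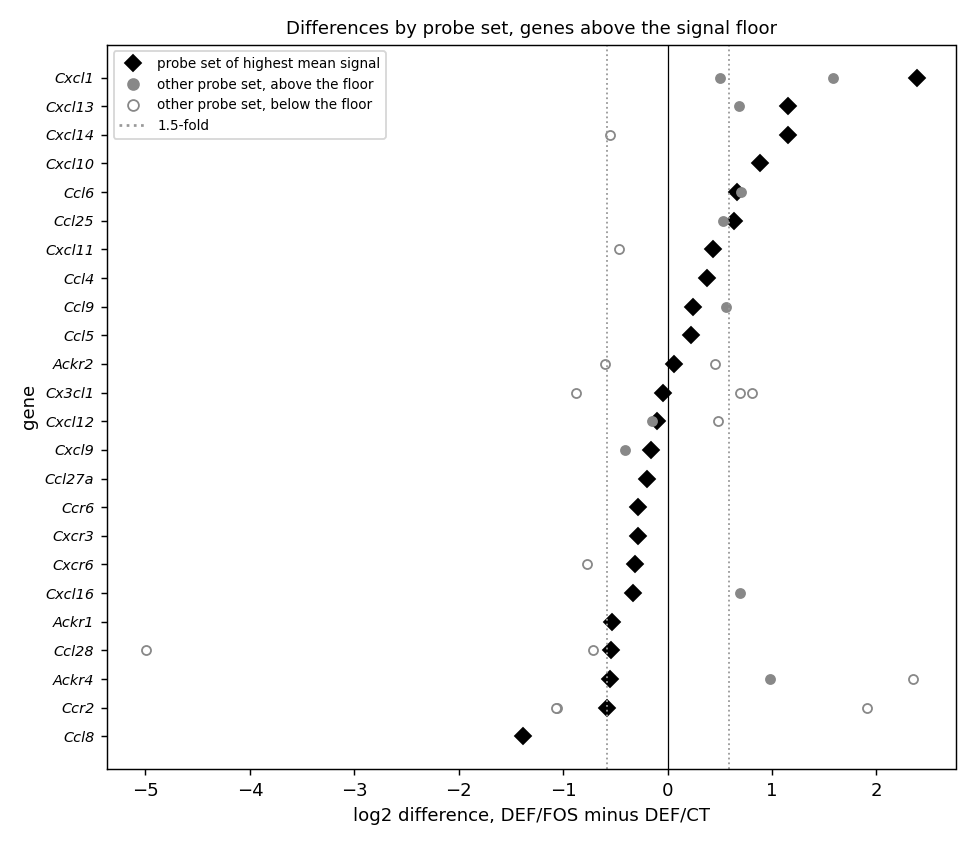
Log2 difference, DEF/FOS minus DEF/CT (x axis), for every probe set of the 24 genes above the floor (y axis); diamonds are the probe sets of highest mean signal, filled circles other probe sets above the floor and open circles those below it, whose positions have no order, and dotted lines mark 1.5-fold. The 3 filled points of Cxcl1 run from 0.50 to 2.39, and the filled points of Cxcl16 and Ackr4 lie on both sides of 0.

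Several probe sets above the floor were present for 9 of the 24 genes. In 7 of them, Ccl6, Ccl9, Ccl25, Cxcl1, Cxcl9, Cxcl12 and Cxcl13, all had the same sign, and Ackr4 and Cxcl16 were the exceptions. The SD between probe sets over these 9 genes was 0.61. The genes at least 1.5-fold higher with agreement of more than 1 probe set above the floor were Cxcl1, Cxcl13, Ccl6 and Ccl25, whereas Cxcl10 and Cxcl14 rest on 1.

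Chemokine genes lie in clusters, and the signs of the differences were listed by cluster. With at most 5 protein-coding genes from one member to the next in RefSeq order, the members formed runs of 7, 6, 5, 5, 3, 2 and 2 genes. In the run Ccl5, Ccl9, Ccl6, Ccl3 and Ccl4, 4 genes were above the floor and all 4 had positive differences. The run of Cxcl1, Cxcl2, Cxcl3, Cxcl5 and Cxcl15 had 1 above the floor, Cxcl1. The run of Ccl2, Ccl7, Ccl11, Ccl12, Ccl8 and Ccl1 also had 1, Ccl8, which passed through DEF/CT liver alone. Cxcl9 and Cxcl10, next to each other, had differences of -0.16 and 0.89, the first within the probe set SD of 0.30 at such signals. The run of 7 receptors around Ccr1, Ccr2 and Ccr3 had 2 above the floor, Ccr2 and Cxcr6, which likewise passed through DEF/CT liver alone, so that their sign is no result.

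Genes close to the family that the symbol rule leaves out had small differences, apart from Ccrl2. Ccrl2, a gene named for its likeness to chemokine receptors, had 18.1 in DEF/FOS liver and 41.2 in DEF/CT liver, at least 2.10-fold lower. It passed the floor through DEF/CT liver alone, so its sign follows from the filter. The platelet CXC chemokines Pf4, with 68.6 and 69.1, and Ppbp, with 30.1 against 22.1, differed by 0.00 and 0.47. Rarres2 (chemerin) had a difference of -0.12, Mif 0.19, Cmtm3 0.54, Cmtm6 -0.38 and Cmtm7 -0.36, and Cmklr1 and Pitpnm3 were below the floor in both pools. Of 5 platelet markers measured, 4 were above the floor, with summed signals of 176 and 177.

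Genes that signal behind chemokine receptors were not shifted as a group. Of 29 measured, 24 passed the floor, and their median was -0.00. A single gene was higher by 1.5-fold or more and none was lower by that much, where 6.75% and 7.82% of all genes were. The receptor kinase Grk6 was 1.60-fold higher in DEF/FOS liver at 138 against 86.7, although its probe sets differed in sign. The regulators of G protein signalling Rgs3 and Rgs1 had differences of -0.57, with disagreeing probe sets, and 0.56, and Was, which links receptors to actin, had -0.41.

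Cytokines, their receptors and NF-kappaB feedback genes, which act upstream of many chemokine genes, were measured for 34 genes. Of 30 genes past the floor, 5 were higher and 2 lower by 1.5-fold or more, where 6.75% and 7.82% of all genes were. Differences were above 0 in 21, where 49.9% of all genes were, and the median was 0.16. Tnfaip3 (A20), a feedback inhibitor that NF-kappaB induces, was 2.46-fold higher at 74.7 against 30.7. The interleukin 1 receptor Il1r1 was 1.95-fold higher at 316 against 164, and the NF-kappaB cofactor Bcl3 1.95-fold at 369 against 191. Il17a had 19.4, just under the floor, against 39.5 and was at least 2.01-fold lower. It passed through DEF/CT liver alone, so its sign follows from the filter. The cytokines Il6, Ifng and Tnf were below the floor in both pools.

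Leukocyte adhesion genes, which hold leukocytes on the vessel wall, had a median of 0.34 over 12 genes above the floor. Of these, 9 were above 0, where 49.9% of all genes were. The endothelial ligands Icam1, at 147 against 66.5, and Vcam1, at 129 against 85.0, were 2.23-fold and 1.54-fold higher in DEF/FOS liver. None of the 12 was at least 1.5-fold lower. By that fold, 6.75% of all genes were higher and 7.82% lower. The integrin chain Itgb2 differed by 0.55 and Cd44 by 0.54. Sinusoidal endothelial markers, 11 of 11 above the floor, had a median of -0.08 and ran from -0.22 to 0.25.

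Proteoglycans and proteases that bind or cut chemokines had a median of -0.19 over 16 genes above the floor. The heparan sulfate sulfotransferase Hs2st1 was 1.77-fold higher and the protease Mmp2 2.02-fold lower in DEF/FOS liver, and in each the probe sets differed in sign. The glypican Gpc4 had a difference of -0.51 and the heparan sulfate polymerase Ext2 one of -0.46. Stellate cell markers had a median of -0.12 over 10 genes, with none at least 1.5-fold apart. Of 6 cholangiocyte markers, 3 passed the floor, and the median of these was 0.51. Krt19, at 26.1 against 17.2, passed through DEF/FOS liver alone, so its sign follows from the filter. Epcam and Sox9, with signal in both pools, had differences of 0.19 and 0.51.

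**Figure D5:**
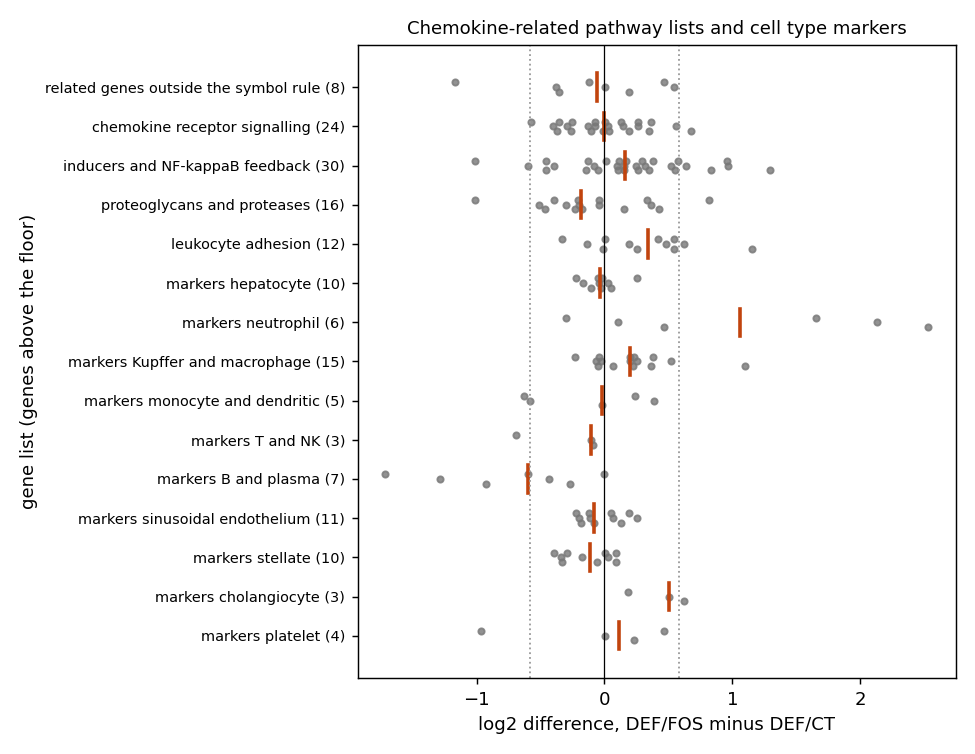
Log2 difference, DEF/FOS minus DEF/CT (x axis), of the genes above the floor in each list of pathway genes and cell type markers (y axis, number of genes in parentheses); grey points are genes, orange bars are list medians and dotted lines mark 1.5-fold. Neutrophil markers have a median of 1.06 over 6 genes and B and plasma cell markers one of -0.60 over 7, while hepatocyte and sinusoidal endothelial markers lie near 0; the skeletal muscle list is not drawn.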

How the data were processed

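The authors' deposited table gives 1 MAS5 intensity, linear and in arbitrary units, for each of 45101 probe sets on each of 2 arrays. The submitters' processing notes name MAS5 and GCOS and give no version, and RNA was pooled within groups before labelling, per the labels' protocols. Both arrays had a trimmed mean of 100.00 with 2% left out at either end, which shows a shared scale. Neither detection calls nor background values are part of the table, and 1 array per group limits the precision.

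The 64 control probe sets were left out. Gene names are those of the platform annotation, some of which may be out of date: 34945 probe sets had 1 symbol, 932 several and 9160 none listed. A RefSeq table (GRCm38.p6) was used to check symbols by Entrez identifier; it matched 34741 probe sets and updated 0. The centring shift was -0.01 on the log2 scale. Since folds were taken after centring, ratios of printed signals may deviate a little from them. Python 3.11.15 with numpy 2.4.6 and pandas 2.3.3 was used, and the procedure was tested on simulated data.

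The members, the 28 lists and the rules were chosen with earlier results of these data known. Every member could be named; other lists give up to 4 genes of largest absolute difference, all related genes outside the symbol rule, and Alb, and further markers named beside a result were chosen after their values were seen. The members' medians and counts, the counts over all genes and the difference of each member above the floor were recomputed under 8 alternatives, as far as each left genes to measure; the other lists and the promoter shares were not. Protein and probe sequences were not used here. Mice that stayed on either diet without a switch or fibre were not analysed here.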

Additional observations from a re-analysis of the deposited data

How the results depend on the processing

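No paired analysis was possible because each group has 1 pooled array. Values for single genes changed by less than the probe set SD in 160 of 169 recomputed cases, and no gene past 1.5-fold changed sign. Cxcl1 ran from 1.58 to 2.44, Cxcl13 from 0.81 to 1.21 and Cxcl10 from 0.51 to 0.94, while Ackr4 and Cxcl16 had the opposite sign with the median over probe sets (0.21 and 0.18) and without probe sets of less specific design, whose IDs end in _s_at, _x_at or _a_at (0.98 and 0.70), and Cx3cl1 passed 0 in 2 alternatives.

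The counts depended on the floor and on an offset. Without a floor, 15 chemokine or receptor genes were higher and 12 lower by 1.5-fold, and 9 and 7 by 2-fold, beside 2856 and 3546, and 1661 and 2322, of all genes. With the floor at the 75th percentile, 2 members were higher and 0 lower at 1.5-fold, and 1 and 0 at 2-fold, with medians of 0.047 for members and for ligands, no receptor left, and 244 and 212, and 59 and 28, of all genes. With an offset of 32, 2 members were higher by 1.5-fold, and 1 was higher and 0 lower at 2-fold, the receptor median was -0.13, and all genes gave 278 and 258, and 55 and 40. Without centring, 2 members were lower by 1.5-fold.

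With the median over probe sets, the medians were 0.12 for members and 0.37 for ligands. Without the less specific probe sets, they were 0.25 for members, 0.37 for ligands and -0.11 for receptors. The ligand median stayed above 0 in 8 of 8 alternatives and the receptor median below 0 in the 7 that gave one. These alternatives reuse the same 2 arrays and are no replicates. Each receptor set held Ccr2, whose sign follows from the main floor. Genes with both signals above the floor were not recomputed as a set of their own. The causes of the shifts in medians and counts were not tested, beyond the fewer genes that a higher floor or fewer probe sets leave.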
